A study of Homo sapiens with 26 samples.

Results

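The 39 genes described here act in homologous recombination and in the Fanconi anaemia pathway of crosslink repair, and they were taken by gene symbol from a table of 58735 human genes. All 39 symbols were present. Of these, 38 reached 1 FPKM (fragments per kilobase of gene length, scaled to the library) in at least 3 libraries and were tested, and RAD51B stayed between 0.254 and 0.826 FPKM in the clones and was only described.

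The series measured poly-A RNA in 26 libraries from 3 near-diploid human cancer cell lines and from clones grown out of single cells of each line. HCT116 and DLD1 are colorectal cancer lines, and CAL51 is labelled a triple negative breast cancer line. Tetraploid (4N) clones followed a block of cytokinesis for 20 hr, with 75 µM blebbistatin in HCT116 and CAL51 and with 1.5 µg/mL dihydrocytochalasin in DLD1, a recovery of 48 hr and limiting dilution, and they were classed by the submitters as small or large in cell and nuclear size. The question was which genes differ between small and large 4N clones. HCT116 gave 1 parental library, 2 clones at 2N, 3 small 4N clones and 3 large 4N clones. DLD1 gave 1 parental library, 2 clones at 2N, 3 small and 4 large 4N clones. CAL51 gave 1 parental library, 2 clones at 2N, 1 small and 3 large 4N clones. Each library of a clone stands for 1 clone, so clone and replicate are the same thing here, and the labels do not say whether the 2N clones had met the drug. The drug differed between DLD1 and the other lines and cannot be told apart from the line.

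Homologous recombination copies the intact sister chromatid to mend a broken DNA end. The MRE11, RAD50 and NBN proteins hold and trim the end, and BRCA1, PALB2 and BRCA2 prepare the single strand for pairing with the sister. BLM with its partners, or the MUS81 nuclease with the scaffold SLX4, undo the joined molecules. In the Fanconi pathway a core complex and the ubiquitin-conjugating enzyme UBE2T attach ubiquitin to FANCD2 and FANCI at a crosslink, which hands the lesion to the same recombination proteins. Many of these genes are transcribed most in S phase of dividing cells.

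Library depth was 23.5 to 44.5 M reads with a median of 32.5 M, and 1 read in a gene of 1 kb was worth 0.0246 to 0.0400 FPKM. The factor that scaled each library was not its total of these reads alone. CAL51 large clone 1 had 44.5 M reads at 0.0246 FPKM per such read, and HCT116 small clone 1 had 36.8 M at 0.0254 FPKM. What the submitters' factor was is not given. Reads from mitochondrial genes made up 2.42% to 10.1%. The epithelial gene EPCAM was between 53.4 and 354 FPKM in all 26 libraries, whereas CDH1 was at 0.193 to 11.1 FPKM in CAL51 (3 of 7 libraries at 1 FPKM or more) and KRT19 was as low as 2.28 FPKM there. The intestinal factor CDX2 was at 4.28 to 8.02 FPKM in HCT116 and at 38.5 to 81.8 FPKM in DLD1, while CDX1 was at most 0.0610 FPKM and VIL1 at most 0.0213 FPKM in HCT116. Of the other colon genes looked at, LGR5 and CDH17 were at most 0.0278 and 0.0830 FPKM in HCT116. They were at 9.81 to 38.5 and 4.94 to 36.9 FPKM in DLD1, and reached 27.5 and 4.66 FPKM in CAL51. In CAL51 the hormone receptor genes ESR1 and PGR were at most 0.0217 FPKM, and the luminal factor GATA3 was at 0.350 to 1.13 FPKM. The receptor gene ERBB2 was at 14.9 to 22.8 FPKM in CAL51, beside 10.4 to 14.7 FPKM in HCT116 and 15.7 to 19.0 FPKM in DLD1. FOXA1, looked at as a breast gene, was at 1.33 to 3.49 FPKM in CAL51 but at 44.1 to 88.5 FPKM in DLD1. The leukocyte genes PTPRC, CD3E and CD68 were at or under 0.480 FPKM in every library. Of the stromal genes, DCN was at most 0.00247 FPKM and PECAM1 at most 0.0959 FPKM, but COL1A1 was at 1.20 to 5.25 FPKM in HCT116, and COL1A1 and COL3A1 reached 8.35 and 29.9 FPKM in CAL51.

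The start regions of the genes are shown first so that the short elements some of them share can be read beside the values. RefSeq (GRCh38.p14) had promoter entries for 35 of the 39 symbols, and RMI2, RAD54B, FANCI and NBN had none. These symbols had 47 entries, and the start meant below is that of an entry. It can differ from the end of the gene as bounded in the FPKM data. Windows shown for FANCC, RMI1 and CHEK1 lie inside those bounds. Each window is 30 bases, written 5′ to 3′ on the strand of the gene, and capitals mark the motif, which may be read on either strand. An exact E2F-type motif (TTTGGCGC, TTTCCCGC, TTTGCCGC or TTTCGCGC) within 250 bases before the start was found in FANCA, FANCC and RMI1:
FANCC (chr9:95317737-95317766, minus strand): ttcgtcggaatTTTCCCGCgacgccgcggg
FANCC (chr9:95317863-95317892, minus strand): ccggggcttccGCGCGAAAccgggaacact
RMI1 (chr9:83980762-83980791, plus strand): ggcgcgagcgcGCGGCAAAtcgggcgggaa
FANCA (chr16:89816801-89816830, minus strand): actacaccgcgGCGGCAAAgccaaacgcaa

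These 3 of 35 genes are 8.57%, beside 3.40% of 27305 symbols with an entry and 5.66% of 9956 symbols with an entry among the genes tested. The CCAAT motif was found in 16 of the 35 (45.7%), beside 37.0% of all symbols and 41.3% of those tested. Windows with CCAAT are shown for the genes whose levels the results turn on:
RAD54L (chr1:46247674-46247703, plus strand): catcgaacgcagCCAATgggtgatacgacg
RAD54L (chr1:46247611-46247640, plus strand): cccagactcctcATTGGgcgcagcactatt
UBE2T (chr1:202341992-202342021, minus strand): gattactgtgggCCAATcacaatcttcccc
MRE11 (chr11:94493889-94493918, minus strand): tgcgtgcggtagCCAATgagagccgaactg
XRCC3 (chr14:103715500-103715529, minus strand): gcttcgtctctgATTGGtgtagcccactca
CHEK1 (chr11:125626318-125626347, plus strand): atggggatgggaATTGGaattgagcaattg
BLM (chr15:90717313-90717342, plus strand): cccaggaagcagCCAATcggaataggcaag

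The cell cycle element CHR (TTTGAA or TTCGAA) was found in ATM, BRIP1, FANCC and UBE2T, which is 11.4% of the 35, beside 17.2% of all symbols and 13.0% of those tested. In the 100 bases next to the start, CCAAT was found in 40.0% of the 35 (21.6% of all symbols, 26.5% of those tested), the E2F-type motif in 5.71% (1.43% and 2.35%) and CHR in 2.86% (6.14% and 4.21%). These matches describe letters in a window and were not read as sites.

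All 39 genes were detected in every line, at levels that ran from below 1 to above 30 FPKM. UBE2T, the conjugating enzyme of the Fanconi pathway, had the highest median over clones in HCT116 (24.5 FPKM) and DLD1 (20.0 FPKM), and the end-sensing gene NBN had the highest in CAL51 (31.4 FPKM), just ahead of UBE2T (30.7 FPKM). FANCI, FANCG and the resection factor RBBP8 were also among the high genes, with medians from 11.9 to 21.5 FPKM over the 3 lines. At the low end stood RAD51B (medians 0.485, 0.553 and 0.485 FPKM in HCT116, DLD1 and CAL51), the translocase RAD54B (0.676, 0.854 and 0.827 FPKM) and RAD50 (0.852, 1.49 and 0.722 FPKM). The kinase ATM (1.36, 1.99 and 1.73 FPKM) and BRCA2 (1.28, 3.08 and 2.06 FPKM) were also low, and both encode very large proteins. FPKM is a level per gene length relative to the other genes of the library. Fewer transcripts per cell and more RNA from other genes therefore cannot be told apart, nor can total RNA per cell be read from it.

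**Figure D1:**
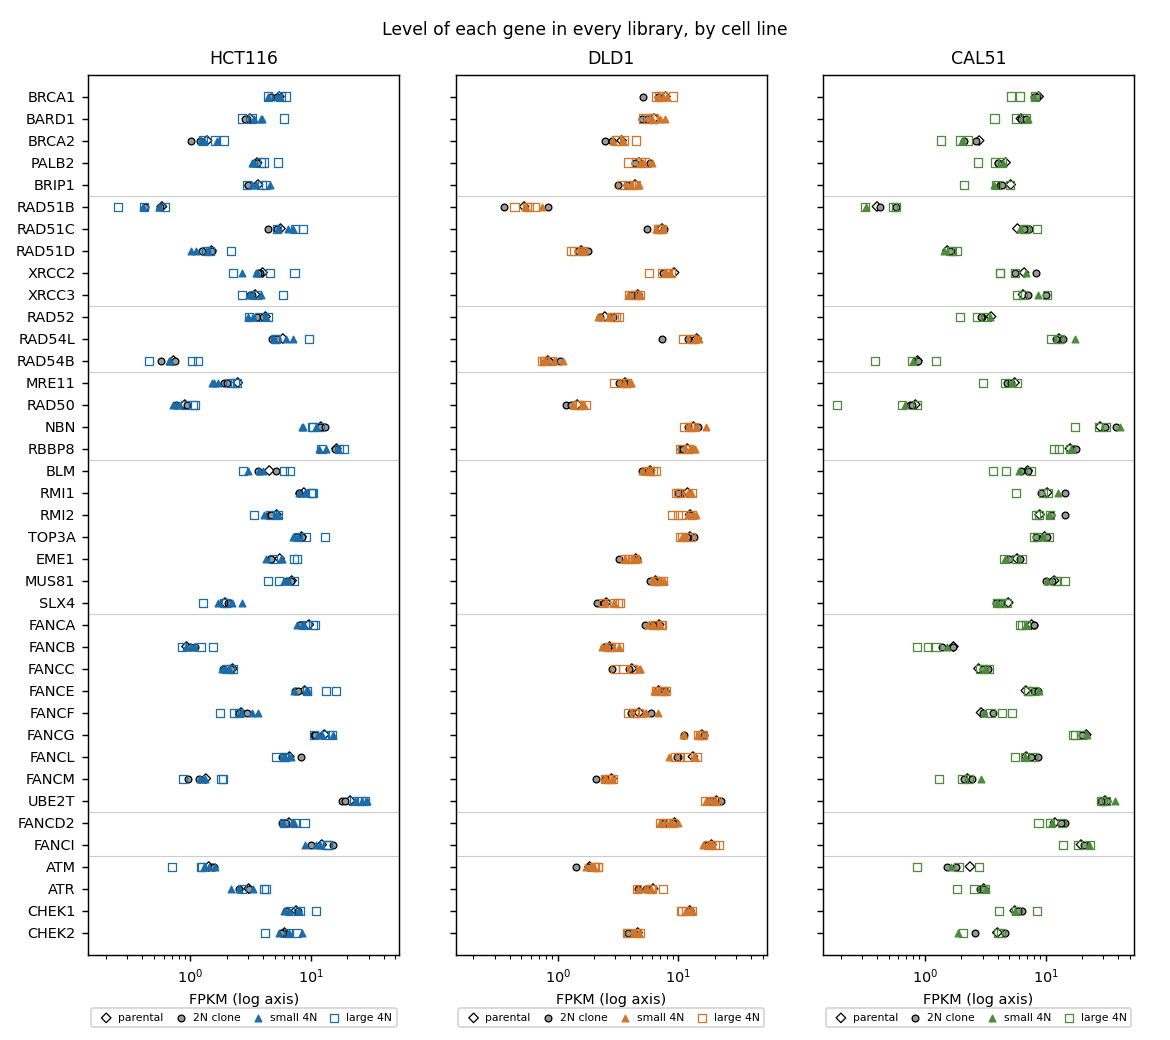
Level of each gene (FPKM, log axis) in every library of HCT116, DLD1 and CAL51, with symbols for parental, 2N, small 4N and large 4N libraries and horizontal lines between functional groups. UBE2T sits at or near the right of each panel, with medians of 24.5, 20.0 and 30.7 FPKM, and RAD51B, RAD54B and RAD50 sit at the left.

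The clearest pattern in these genes was between cell lines. Averaged over the 2N, small 4N and large 4N class means, 31 of 38 genes differed between HCT116 and DLD1 (limma, adjusted p under 0.05), 24 of them lower and 7 higher in HCT116. Over all 14835 genes tested, 63.7% differed between these lines, 30.8% lower and 33.0% higher in HCT116. Between HCT116 and CAL51, 21 of 38 differed, 19 lower and 2 higher in HCT116, beside 64.0% of all genes, 32.6% lower and 31.5% higher. Between DLD1 and CAL51, 21 of 38 differed, 11 higher and 10 lower in DLD1, beside 61.0% of all genes, 29.0% higher and 32.0% lower. Most genes of the whole table therefore differ between these lines, and what is uneven among the 38 is the split by direction in both comparisons with HCT116. The median log2 difference over the 38 genes was -0.32 for HCT116 minus DLD1, -0.28 for HCT116 minus CAL51 and -0.003 for DLD1 minus CAL51, where the medians of all genes were 0.002, -0.017 and -0.013. The last of the 3 medians of the 38 genes changed sign with single clones left out, from -0.047 to 0.011.

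The S-phase list of 20 genes that are not among the 39 moved the same way, with 15 lower and 1 higher in HCT116 than in DLD1 (median log2 difference -0.57) and 9 lower and 1 higher than in CAL51 (median -0.34). The list of 20 genes of G2 and M had 5 lower and 0 higher in HCT116 than in DLD1 (median -0.14), and 10 lower and 1 higher than in CAL51 (median -0.36). The part of cell cycle state in the differences between lines was not tested.

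**Figure D2:**
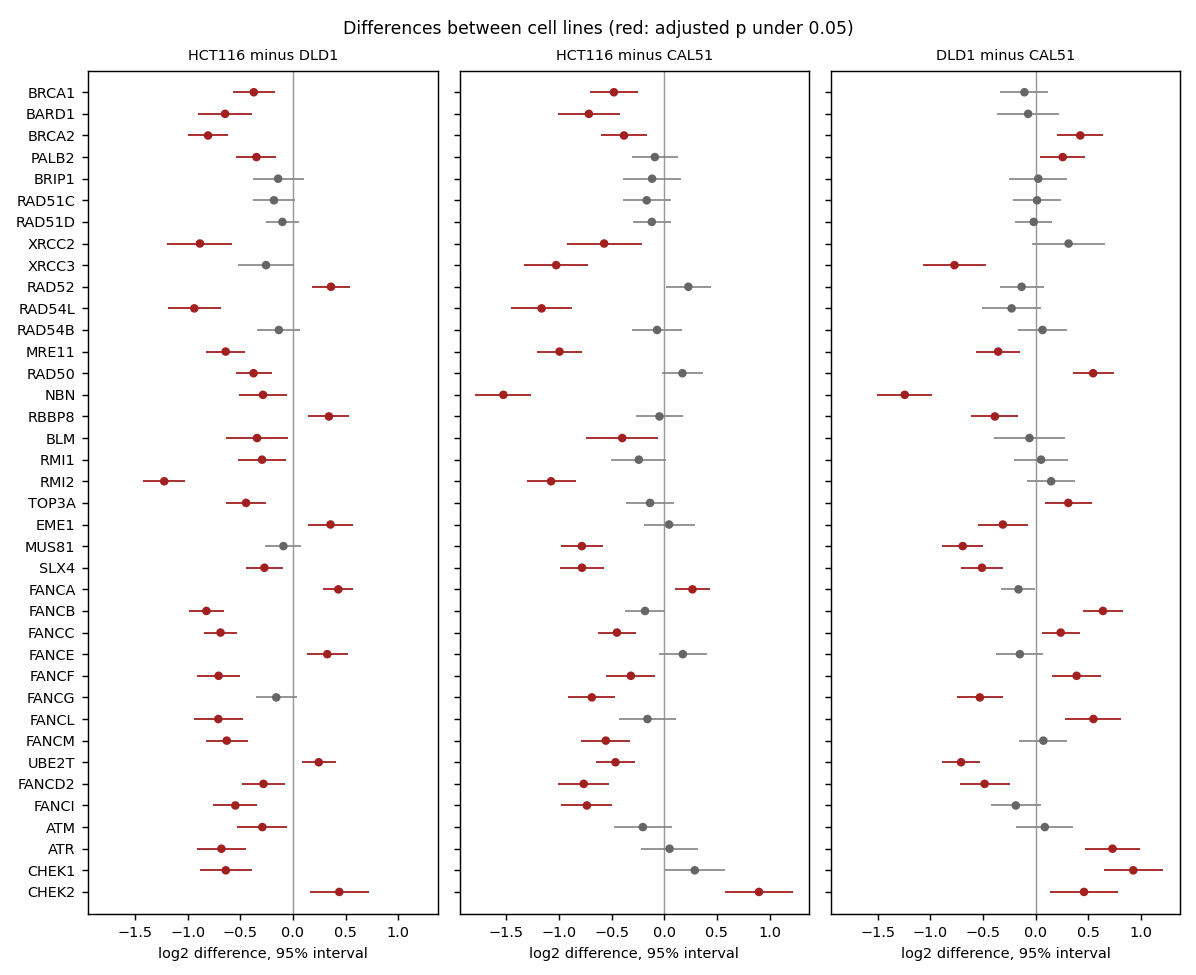
Log2 difference of each of the 38 genes between cell lines with its 95% interval, in 3 panels, with adjusted p under 0.05 in red. Most red points of the HCT116 minus DLD1 and HCT116 minus CAL51 panels lie below 0 (24 and 19 genes), and those of DLD1 minus CAL51 lie on both sides (11 above, 10 below).

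Among BRCA1, BARD1, BRCA2, PALB2 and BRIP1, which act together early in recombination, 4 of 5 were lower in HCT116 than in DLD1 and 3 of 5 were lower than in CAL51. BRCA2 ran from 1.02 to 1.90 FPKM (median 1.28) in the 8 HCT116 clones, from 2.46 to 4.43 FPKM (median 3.08) in the 9 DLD1 clones and from 1.36 to 2.64 FPKM (median 2.06) in the 6 CAL51 clones. Every HCT116 clone was below every DLD1 clone, and the log2 difference was -0.81 ± 0.09 (SE, limma adjusted p = 4.23e-07). BARD1, the partner of BRCA1 in its ubiquitin ligase, had medians of 3.31, 6.11 and 6.57 FPKM in HCT116, DLD1 and CAL51. Its log2 difference was -0.64 ± 0.12 for HCT116 minus DLD1 and -0.72 ± 0.14 for HCT116 minus CAL51, both past the threshold, but the clones overlapped, since HCT116 large clone 3 had 6.03 FPKM and CAL51 large clone 1 had 3.76 FPKM. The helicase BRIP1 had medians of 3.39, 4.04 and 4.05 FPKM and passed the test in none of the 3 pairs.

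Of RAD51C, RAD51D, XRCC2 and XRCC3, which form complexes that assist strand pairing, XRCC2 was the 1 gene of 4 that was lower in HCT116 than in DLD1. XRCC2 had medians of 3.60, 7.74 and 5.58 FPKM in HCT116, DLD1 and CAL51, and its log2 difference was -0.88 ± 0.15 for HCT116 minus DLD1 (limma adjusted p = 3.96e-05). XRCC3 was highest in CAL51, at 5.82 to 10.3 FPKM (median 7.83), beside 2.69 to 5.91 FPKM (median 3.25) in HCT116 and 3.85 to 4.84 FPKM (median 4.35) in DLD1. Its log2 difference was -1.03 ± 0.14 for HCT116 minus CAL51 and -0.77 ± 0.14 for DLD1 minus CAL51 (limma adjusted p = 5.93e-06 and 0.000134). RAD51C (medians 5.89, 7.22 and 6.78 FPKM) and RAD51D (1.38, 1.58 and 1.64 FPKM) passed in no pair.

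The motor protein gene RAD54L (ENSG00000085999, chr1:46247688-46278473, GRCh38), which helps the broken strand invade the duplex, was at 4.72 to 9.67 FPKM (median 5.15) in HCT116, at 7.39 to 14.8 FPKM (median 13.2) in DLD1 and at 11.1 to 17.5 FPKM (median 12.9) in CAL51. The log2 difference was -0.94 ± 0.12 for HCT116 minus DLD1 and -1.16 ± 0.14 for HCT116 minus CAL51 (limma adjusted p = 1.73e-06 and 6.19e-07). HCT116 and CAL51 clones did not overlap, whereas the lowest DLD1 clone, 2N clone 2 at 7.39 FPKM, lay below HCT116 large clone 3 at 9.67 FPKM. RAD52, which anneals single strands, went the other way and was higher in HCT116 than in DLD1, with medians of 3.66 and 2.79 FPKM. RAD54B passed in no pair.

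The 3 genes of the end-binding complex did not share an order. NBN was highest in CAL51, at 17.5 to 41.3 FPKM (median 31.4), above all clones of HCT116 (8.46 to 13.1 FPKM, median 10.7) and DLD1 (11.1 to 16.96 FPKM, median 12.6). Its log2 difference was -1.53 ± 0.13 for HCT116 minus CAL51 and -1.24 ± 0.12 for DLD1 minus CAL51 (limma adjusted p = 6.23e-09 and 9.17e-08). The nuclease gene MRE11 was lowest in HCT116, at 1.51 to 2.44 FPKM, with DLD1 at 2.93 to 4.06 FPKM and CAL51 at 3.03 to 5.79 FPKM, and HCT116 overlapped neither line. RAD50 was highest in DLD1, at 1.17 to 1.70 FPKM, above all clones of HCT116 (0.720 to 1.08 FPKM) and CAL51 (0.187 to 0.859 FPKM). RBBP8, which starts resection together with MRE11, was lowest in DLD1, with a median of 12.1 FPKM beside 15.9 and 16.2 FPKM in HCT116 and CAL51, and passed against both.

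Of the 7 genes that dissolve or cut joined molecules, 5 were lower and 1 higher in HCT116 than in DLD1, and 4 were lower than in CAL51. RMI2 (ENSG00000175643, chr16:11249619-11381662), a small subunit of the BLM and TOP3A complex, had the largest difference of all 38 genes between HCT116 and DLD1. RMI2 was at 3.37 to 5.36 FPKM (median 4.63) in HCT116, at 8.93 to 14.05 FPKM (median 12.6) in DLD1 and at 8.38 to 14.5 FPKM (median 10.8) in CAL51, with no overlap between HCT116 and either line. The log2 difference was -1.22 ± 0.10 against DLD1 and -1.08 ± 0.11 against CAL51 (limma adjusted p = 3.26e-09 and 1.16e-07). Its partner RMI1 had medians of 9.01, 10.6 and 10.0 FPKM and TOP3A had 7.81, 11.3 and 8.99 FPKM. The nuclease gene MUS81 and its scaffold SLX4 were highest in CAL51. MUS81 was at 10.1 to 14.4 FPKM in CAL51, beside 4.38 to 7.26 FPKM in HCT116 and 5.83 to 7.60 FPKM in DLD1. SLX4 was at 3.84 to 4.82 FPKM in CAL51, beside 1.28 to 2.67 and 2.13 to 3.27 FPKM. For both genes the CAL51 clones lay above all clones of the other lines. EME1, the partner of MUS81, did not follow it, with medians of 5.27, 4.14 and 5.31 FPKM.

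In the Fanconi core complex with UBE2T, 5 of 9 genes were lower and 3 were higher in HCT116 than in DLD1, and 5 were lower and 1 was higher than in CAL51. FANCA was the 1 gene of the 38 whose HCT116 clones were all above the DLD1 clones, at 7.63 to 10.7 FPKM (median 8.67) against 5.31 to 7.37 FPKM (median 6.19), a log2 difference of 0.43 ± 0.07 (limma adjusted p = 2.10e-05). FANCB, an X-linked subunit of the same complex, was highest in DLD1, at 2.31 to 3.21 FPKM, with HCT116 at 0.860 to 1.55 FPKM and CAL51 at 0.857 to 1.70 FPKM. FANCC was lowest in HCT116, at 1.83 to 2.26 FPKM, below DLD1 at 2.84 to 4.78 FPKM and CAL51 at 2.88 to 3.37 FPKM. FANCL, the ubiquitin ligase subunit, had medians of 6.01, 10.3 and 7.20 FPKM in HCT116, DLD1 and CAL51. FANCG and UBE2T were highest in CAL51, with medians of 19.8 and 30.7 FPKM there. The log2 difference of UBE2T was -0.71 ± 0.09 for DLD1 minus CAL51 and -0.46 ± 0.09 for HCT116 minus CAL51 (limma adjusted p = 1.30e-06 and 0.000162).

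Both genes of the pair that receives ubiquitin were lowest in HCT116 in both comparisons. FANCD2 had medians of 6.67, 8.38 and 12.3 FPKM in HCT116, DLD1 and CAL51, and FANCI had 12.7, 18.1 and 21.5 FPKM. Against CAL51 the log2 differences were -0.76 ± 0.11 for FANCD2 and -0.74 ± 0.11 for FANCI (limma adjusted p = 1.16e-05 and 1.89e-05).

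The checkpoint kinases that report breaks and stalled forks did not share an order either. ATR, the kinase for single-stranded DNA, and its effector CHEK1 were highest in DLD1. ATR was at 4.55 to 7.51 FPKM in DLD1, above all clones of HCT116 (2.17 to 4.27 FPKM) and CAL51 (1.84 to 3.18 FPKM). CHEK1 was at 10.6 to 13.0 FPKM in DLD1, at 5.98 to 11.1 FPKM in HCT116 and at 4.11 to 8.52 FPKM in CAL51, and DLD1 minus CAL51 was 0.93 ± 0.13 (limma adjusted p = 8.45e-06). CHEK2, the effector of ATM, was highest in HCT116, with medians of 6.16, 4.33 and 3.31 FPKM, and HCT116 minus CAL51 was 0.90 ± 0.15 (limma adjusted p = 5.34e-05).

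Counting only genes whose clones did not overlap, 12 of 38 (31.6%) separated HCT116 from DLD1, beside 30.1% of all genes tested. For HCT116 and CAL51 it was 8 of 38 (21.1%, all lower in HCT116) beside 34.8%, and for DLD1 and CAL51 it was 10 of 38 (26.3%) beside 37.4%.

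Small and large 4N clones were compared next. No gene of the 38 passed in the mean of the 3 lines or within HCT116, DLD1 or CAL51 (limma, adjusted p under 0.05). The same test called 0.398% of all genes in the mean of the lines, 0.445% within HCT116, 0.472% within DLD1 and 1.52% within CAL51. With unadjusted p under 0.05, 0 of 38 were counted in the mean of the lines, 8 within HCT116, 3 within DLD1 and 3 within CAL51, beside 9.54%, 15.4%, 6.65% and 12.4% of all genes. A fit of the recovered reads with limma voom also called 0 of 38 in all 4. For the mean of the lines the 95% intervals of all 38 genes lay between -0.48 and 0.43 on the log2 scale, with a median half-width of 0.22. The intervals were wider within HCT116 (-0.71 to 0.84), DLD1 (-0.67 to 0.61) and CAL51 (-1.24 to 1.25), where the small class is 1 clone.

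**Figure D3:**
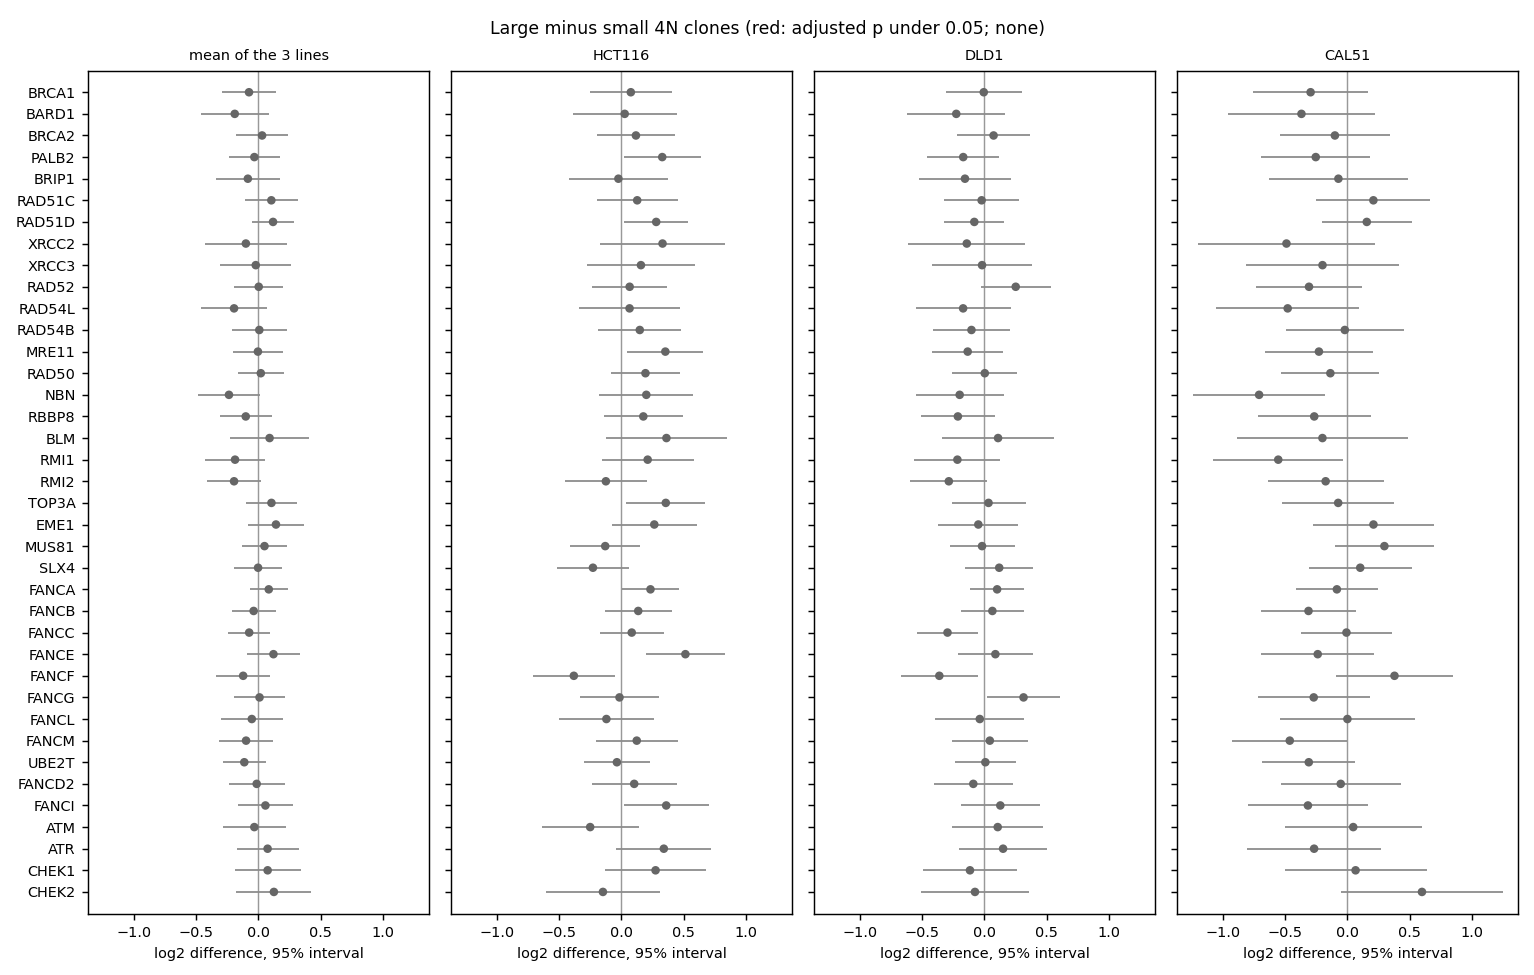
Log2 difference of each of the 38 genes between large and small 4N clones with its 95% interval, for the mean of the lines and for HCT116, DLD1 and CAL51. No gene passed an adjusted p of 0.05, and the CAL51 intervals are the widest, from -1.24 to 1.25 over all genes.

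In HCT116 the largest moderated statistic belonged to FANCE (ENSG00000112039, chr6:35452356-35467103), the core subunit that binds FANCD2. FANCE was at 7.31 and 7.78 FPKM in the 2N clones, at 7.26, 9.39 and 9.13 FPKM in the small clones and at 13.3, 9.22 and 16.2 FPKM in the large clones. Large clone 2 lay among the small clones and the other large clones lay above all other HCT116 libraries, so the log2 difference of 0.51 ± 0.15 did not pass (limma adjusted p = 0.129). Without that clone 3 of the 38 genes passed in HCT116, where the count over all 14835 genes tested rose to 1035. The 3 genes were FANCE (0.72 ± 0.13, limma adjusted p = 0.00715), XRCC2 (0.69 ± 0.19, 0.0415) and BLM (0.69 ± 0.19, 0.0418). XRCC2 was at 3.58, 2.69 and 3.51 FPKM in the small clones and at 4.60, 2.25 and 7.31 FPKM in the large clones, where clone 2 was the lowest HCT116 library. MRE11 was at 1.51, 1.56 and 1.69 FPKM in the small clones and at 2.12, 2.35 and 2.44 FPKM in the large clones. The 2N clones stood between, at 1.89 and 2.03 FPKM, but the parental library, also 2N, was above all clones at 2.47 FPKM. The small and large values of MRE11 did not overlap, but its log2 difference of 0.35 ± 0.14 did not pass (limma adjusted p = 0.252). PALB2, RAD50, RMI1, FANCA and FANCI were also without overlap, large above small, and FANCF and ATM with large below. The share of all genes without overlap between sizes was not counted, so nothing is concluded from such separation. TOP3A (0.36), FANCF (-0.38), SLX4 (-0.23) and ATM (-0.25) were the other HCT116 genes furthest from 0 by that statistic and did not pass. Without large clone 3, TOP3A came to 0.16, SLX4 to -0.11 and ATM to -0.12.

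FANCF, an adaptor of the core complex, had values of opposite sign by line. In HCT116 it was at 3.61, 2.61 and 3.23 FPKM in the small and at 1.75, 2.52 and 2.29 FPKM in the large clones. In DLD1 it was at 5.25, 6.80 and 5.44 FPKM in the small and at 4.31, 4.68, 3.84 and 4.36 FPKM in the large clones. In CAL51 the small clone had 3.10 FPKM and the large clones 3.49, 5.26 and 4.38 FPKM. The large clones were thus below the small clones in HCT116 and DLD1 and above the small clone in CAL51. The difference between lines was -0.76 ± 0.27 for HCT116 minus CAL51 and -0.74 ± 0.27 for DLD1 minus CAL51 and did not pass (limma adjusted p = 0.151 and 0.273).

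In DLD1 the members furthest from 0 were FANCC (-0.30, limma adjusted p = 0.530), FANCF (-0.36, 0.580), RMI2 (-0.29), FANCG (0.31, 0.703), RAD52 (0.25) and FANCA (0.10), and none passed. FANCA ran from 0.033 without small clone 1 to 0.18 without small clone 2. FANCC was at 4.68, 4.77 and 4.78 FPKM in the small clones and at 4.15, 4.22, 3.49 and 2.96 FPKM in the large clones, which did not overlap. RAD52 was at 2.65, 2.28 and 2.16 FPKM in the small clones and at 3.06, 3.22, 2.79 and 2.92 FPKM in the large clones, also without overlap and in the other direction. The large clones were likewise all below the small clones for RAD54L, RBBP8 and FANCF and all above them for ATM. In DLD1, too, the share of all genes without overlap was not counted.

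In CAL51 the gene furthest from 0 was NBN, at 38.4 and 31.0 FPKM in the 2N clones, 41.3 FPKM in the small clone and 17.5, 31.8 and 27.7 FPKM in the large clones. The large clones were all below the small clone, and the log2 difference of -0.71 ± 0.25 did not pass (limma adjusted p = 0.218). Leaving out large clone 1 brought it to -0.46 (limma adjusted p = 0.285). RMI1 (-0.55), FANCM (-0.46), CHEK2 (0.60), FANCF (0.38) and MUS81 (0.30) were the next and did not pass. Without large clone 1, RMI1 came to -0.32 and FANCM to -0.31. CHEK2 shows how wide single clones ranged, since its small clone had 1.86 FPKM and its large clones had 4.02, 4.25 and 2.07 FPKM.

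The test of whether the size effect differed between lines called 0 of the 38 genes in each of the 3 pairs, beside 0.155% of all genes for HCT116 and DLD1, 1.54% for HCT116 and CAL51 and 0.667% for DLD1 and CAL51. With unadjusted p under 0.05 it counted 4, 8 and 3 of 38, beside 9.13%, 17.9% and 11.1% of all genes, and limma voom called 0 in each pair. The gene furthest from 0 for HCT116 minus CAL51 was NBN (0.91 ± 0.31, limma adjusted p = 0.135), for HCT116 minus DLD1 MRE11 and PALB2 were foremost (0.49 ± 0.20 and 0.50 ± 0.20, both 0.479), and for DLD1 minus CAL51 it was FANCF. The median log2 difference between large and small clones over the 38 genes was -0.009 in the mean of the lines (17 of 38 above 0), 0.13 within HCT116 (28 of 38), -0.03 within DLD1 (15 of 38) and -0.19 within CAL51 (9 of 38). The share of all genes above 0 is not given here, so nothing is concluded from these counts. In single 4N clones the median of all genes tested, relative to the 2N clones of the line, stayed between -0.009 and 0.011. The medians of the 38 genes moved with single clones. The mean of the lines ran from -0.040 to 0.019, above 0 only without CAL51 large clone 1 (23 of 38 above 0), and DLD1 ran from -0.077 without small clone 1 to 0.010 without small clone 2 (20 of 38). HCT116 ran from 0.080 without large clone 3 to 0.21 without large clone 2.

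Ploidy was compared as the mean of the small and large 4N classes against the 2N clones, without the parental libraries. Again 0 of 38 genes passed in the mean of the lines or in HCT116, DLD1 or CAL51 (limma, adjusted p under 0.05), and limma voom called 0 in all 4. The background was 0.00674% of all genes in the mean of the lines, 0.108% within HCT116, 0.0337% within DLD1 and 0.108% within CAL51. With unadjusted p under 0.05, 2, 3, 2 and 0 of 38 were counted, beside 5.0%, 8.73%, 5.01% and 2.93% of all genes.

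UBE2T (ENSG00000077152, chr1:202331657-202341980) in HCT116 was the gene with the lowest adjusted p. It was at 18.2 and 19.2 FPKM in the 2N clones, at 23.006, 29.2 and 26.6 FPKM in the small clones, at 26.1, 22.8 and 27.8 FPKM in the large clones and at 21.1 FPKM in the parental library. All 6 of the 4N clones were above both 2N clones and above the parental library, and the log2 difference of 0.44 ± 0.13 did not pass (limma adjusted p = 0.241). UBE2T showed no such order in DLD1, where the 2N clones had 22.7 and 17.9 FPKM and the 4N clones ran from 16.6 to 20.7 FPKM. RAD54L in DLD1 was at 12.004 and 7.39 FPKM in the 2N clones, at 13.8, 14.1 and 14.8 FPKM in the small clones and at 13.2, 13.0, 13.2 and 10.9 FPKM in the large clones. The 2N clones differed from each other more than the small clones did, and 0.46 on the log2 scale did not pass (limma adjusted p = 0.900). It came to 0.14 without 2N clone 2 and to 0.77 without 2N clone 1. In HCT116, FANCE (0.42, limma adjusted p = 0.381) and RAD51C (0.38, 0.456) came next. In CAL51 the genes furthest below 0 were FANCA (-0.24), RMI2 (-0.33) and FANCD2 (-0.29), and RMI2 came to -0.15 without 2N clone 1 and to -0.50 without 2N clone 2.

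Single libraries were next set beside the mean of the 2N clones of their line. The parental libraries, also 2N, had median log2 differences of the 38 genes that were not all near 0. They were 0.091 in HCT116 (31 of 38 higher), 0.13 in DLD1 (30 of 38) and -0.010 in CAL51 (18 of 38). Relative to the mean of the 2N clones of the line, the median log2 difference of the 38 genes was 0.30 in HCT116 large clone 3, 0.16 in HCT116 large clone 1 (30 of 38 higher) and 0.006 in HCT116 large clone 2, while the small clones had 0.035, 0.008 and -0.053. In HCT116 large clone 3 the genes furthest above 0 were FANCE (1.01), BARD1 (0.85), RAD54L (0.84), XRCC2 (0.82), XRCC3 (0.73) and TOP3A (0.64), and ATM (-0.57) and MUS81 (-0.49) were furthest below. The S-phase list stood at a median of 0.61 in HCT116 large clone 1, at -0.22 in large clone 2 and at 0.90 in large clone 3, and in the small clones it stood at 0.29, -0.047 and 0.24. Large clones 1 and 3 were thus high in both, but small clones 1 and 3 had S-phase medians above 0 while the 38 genes were near 0 (0.035 and -0.053). The list of G2 and M genes stood at 0.33, 0.22 and -0.15 in the large clones. The part of the cell cycle in this was not tested.

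**Figure D4:**
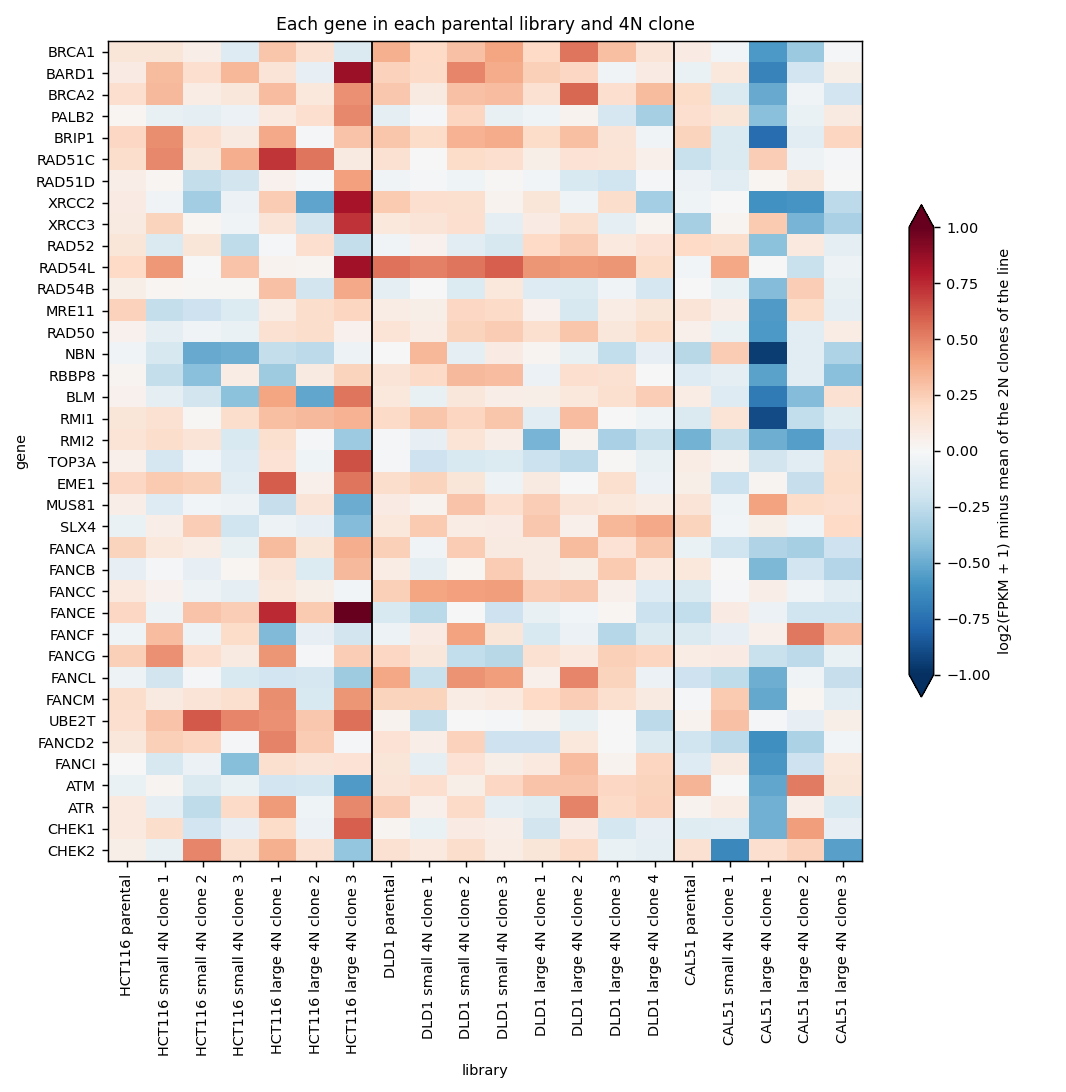
Log2(FPKM + 1) of each of the 38 genes in each parental library and 4N clone, minus the mean of the 2N clones of its line, as a colour from -1 to 1 (values past the limits are drawn at the limit). HCT116 large clone 3 has the strongest red for FANCE (1.01), and CAL51 large clone 1 is blue for most genes, with NBN at -0.95.

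CAL51 large clone 1 went the other way. Its median over the 38 genes was -0.46 with 28 of 38 lower than in the 2N clones, and the genes furthest below 0 were NBN (-0.95), RMI1 (-0.90), BRIP1 (-0.76), BLM (-0.71), BARD1 (-0.67) and FANCD2 (-0.61). MUS81 (0.40), XRCC3 (0.27) and RAD51C (0.25) were above 0. The median of all genes tested in that clone was 0.01, that of the S-phase list was -0.08 and that of the G2 and M list was -0.34. Gene length moved with the difference in this clone, where the shortest tercile of all genes tested had a median of 0.13, the middle tercile 0.05 and the longest tercile -0.13. Of the 38 genes, 21 are in the longest tercile and 4 in the shortest. The part of length was not tested. Without this clone, the median of the 38 genes between large and small CAL51 clones was -0.064 in place of -0.19. DLD1 had no such clone, with medians from 0.012 to 0.17 over its small and large 4N clones.

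**Figure D5:**
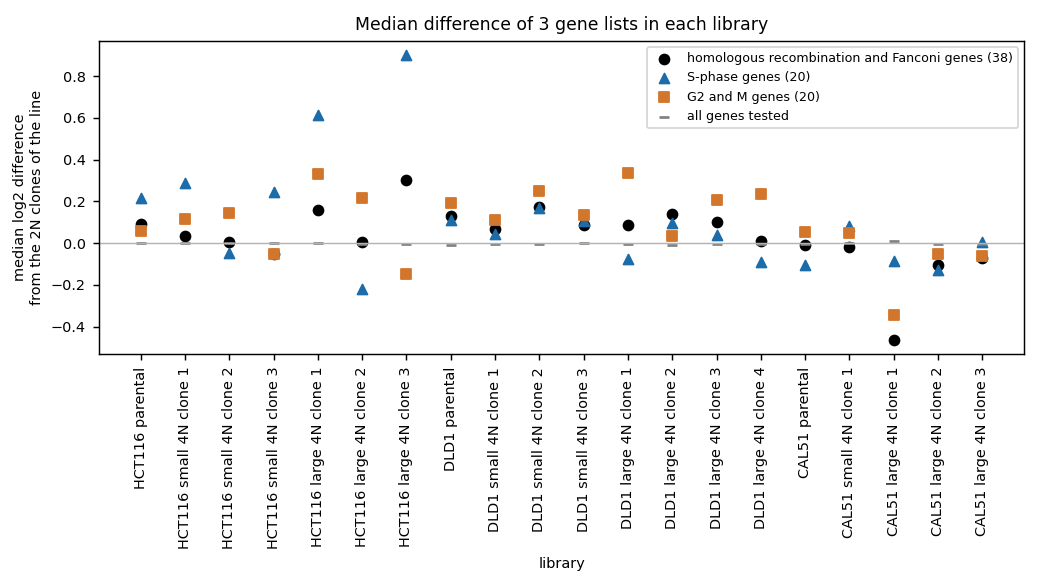
Median log2 difference from the 2N clones of the line in each parental library and 4N clone, for the 38 genes, the S-phase list, the G2 and M list and all genes tested. The S-phase list and the 38 genes are both high in HCT116 large clones 1 and 3 (0.61 and 0.90, and 0.16 and 0.30), while HCT116 small clones 1 and 3 have the S-phase list at 0.29 and 0.24 and the 38 genes at 0.035 and -0.053. The 38 genes are lowest in CAL51 large clone 1 (-0.46).

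The values of the genes in single 4N clones were also set beside the level of the chromosome a gene lies on. Here the reference was the mean of the parental library and the 2N clones of the line, not the 2N clones alone as above. The level of a chromosome was the median over its other genes minus the median over all genes, at a mean of 5 FPKM or more. In 23 of 646 pairs of a gene and a 4N clone, the chromosome was shifted by at least 0.2 on the log2 scale. In 20 of these pairs the gene had the same sign as its chromosome. The pairs came from 17 genes and 11 clones, and the share over all genes was not counted. The pairs of BRCA2 and RBBP8 are in CAL51 large clone 1, where 28 of 38 genes were lower than in the 2N clones. BLM and FANCI on chromosome 15 were both at -0.42 in HCT116 small clone 3, where the chromosome was at -0.45. In CAL51 large clone 2, chromosome 11 was at 0.27, and its genes FANCF (0.58), CHEK1 (0.46), ATM (0.41), MRE11 (0.14) and MUS81 (0.14) were above 0. XRCC2 on chromosome 7 was at -0.42 in DLD1 large clone 4, where the chromosome was at -0.29. UBE2T on chromosome 1 was an exception, at 0.40 in HCT116 large clone 1 where the chromosome was at -0.30, and so were RAD50 in DLD1 small clone 1 and FANCM in DLD1 small clone 3. The part of chromosome dosage in these differences was not tested.

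Within a line and class, the median spread of the 38 genes between clones was below that of all genes tested, but single genes ranged widely. The residual SD of log2(FPKM + 1) had a median of 0.185 over the 38 genes, from 0.105 for FANCA to 0.311 for XRCC2, beside 0.228 over all genes tested and 0.226 over the 10737 genes in the same range of levels. BLM (0.297), CHEK2 (0.280), XRCC3 (0.260) and BARD1 (0.251) followed XRCC2. Among all genes tested, FANCA stood at percentile 2.31 and XRCC2 at percentile 74.7.

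The parental libraries lay within the range of the clones for 38 of 39 genes in HCT116 (MRE11 was above) and 38 of 39 in DLD1 (XRCC2 was above). In CAL51 it was 28 of 39. There the single parental library was above the clones for BRCA1, BRCA2, PALB2, BRIP1, RAD52, SLX4 and FANCB and below them for RAD51C, FANCC, FANCE and FANCF. The range in CAL51 rests on 6 clones, fewer than the 8 of HCT116 and the 9 of DLD1. The share of all genes outside the clones was not counted, so nothing is concluded from these counts.

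Of 60 other tested genes of recombination and crosslink repair, 12 were higher and 24 lower in HCT116 than in DLD1 (median -0.17), and 10 were higher and 25 lower than in CAL51 (median -0.21). The 12 tested genes of end joining, the competing route of break repair, had 3 higher and 7 lower, and 3 higher and 4 lower. Of all genes tested, 33.0% were higher and 30.8% lower in HCT116 than in DLD1, and 31.5% higher and 32.6% lower than in CAL51. Between large and small clones, 1 of the 60 passed, in CAL51, beside 1.52% of all genes there. This was RAD51AP1, a recombination gene, at 18.4 and 16.6 FPKM in the 2N clones, 27.1 FPKM in the small clone and 9.65, 13.8 and 16.96 FPKM in the large clones, a log2 difference of -0.99 ± 0.23 (limma adjusted p = 0.0382). The small side of this comparison is a single clone, which was above both 2N clones, and the gene did not pass with a pseudocount of 0.1 (0.0530), with limma voom (0.0527), without large clone 2 (0.0510), with a mean of 1 FPKM or more in each line (0.0612), with the replicate block (0.137) or with CAL51 fitted alone (0.872). No gene of the S-phase, G2 and M or end-joining lists passed for size or for ploidy.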

How the data were processed

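Poly-A RNA was read from directional dUTP libraries, per the labels' protocols. The submitters' processing notes name fastp, HISAT2 2.0.5, featureCounts 1.5.0-p3 and DESeq2, with the build GRCh38. The authors deposited FPKM per gene, which were used as deposited. Division by the value of 1 read gave whole numbers within 0.01 for 100% of values, which gave depth and the reads for limma voom.

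Log2(FPKM + 1) of the 14835 genes at 1 FPKM or more in at least 3 libraries was fitted with limma 3.58.1 (R 4.3.3), with an intensity trend, 12 means of line and class and 14 residual degrees of freedom. Two-sided p-values were adjusted over all genes by the Benjamini-Hochberg method. Fold changes on this scale understate those of low genes. Replicates are clones, so p-values measure the spread between clones, and the lone small clone of CAL51 was taken to vary as the other groups do.

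Full statistics were given for up to 12 members past 0.05 per comparison, by adjusted p or size. Where none passed, the 3 members furthest from 0 by the moderated statistic in each direction were named, and up to 4 genes past 0.05 of the other lists. Members described by single libraries beyond these were chosen after their values were seen. The members and all gene lists were chosen with earlier results of these data known. The fit was tested on simulated data. Figures were drawn with matplotlib 3.10.9 in Python 3.11.15.

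The alternatives were a pseudocount of 0.1, no filter, median-ratio scaling, limma voom, a replicate block, each line alone, parental libraries counted with 2N clones and each clone left out, and, chosen after the data were seen, a mean of 1 FPKM or more in each line. Clone numbers did not pair the samples.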

Additional observations from a re-analysis of the deposited data

Results flagged for a closer look

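RAD54L in DLD1 large clone 4 was at 10.9 FPKM, while the other large DLD1 clones were between 13.0 and 13.2 FPKM. The gap was 0.920 of the group's range, above the critical value of 0.829 for 4 samples. Among the 39 genes this was the 1 such group, where chance flags about 1 in 20 groups.

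The size effect on FIGNL1, which acts in recombination, differed between HCT116 and DLD1 by 1.26 ± 0.23 on the log2 scale (limma adjusted p = 0.0282). It was at 4.19, 4.83 and 3.37 FPKM in the small and at 6.78, 8.50 and 7.07 FPKM in the large HCT116 clones, and at 7.96, 7.89 and 7.88 FPKM in the small and at 6.002, 4.62, 5.16 and 4.94 FPKM in the large DLD1 clones. Large clones were thus above the small clones in HCT116 and below them in DLD1, without overlap in either line. The adjusted p was 0.0656 with limma voom and 0.0502 with a pseudocount of 0.1 and 0.0624 with a mean of 1 FPKM or more in each line, and it went up to 0.0775 when single clones were left out.

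The size effect on RAD51AP1 differed between HCT116 and CAL51 by 1.27 ± 0.29 (limma adjusted p = 0.0356), where CAL51 has 1 small clone. The adjusted p was 0.0934 with the replicate block, 0.0579 with limma voom, 0.0669 without HCT116 large clone 1, 0.0815 without HCT116 small clone 1 and 0.0533 without HCT116 small clone 3.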

How the results depend on the processing

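The counts of genes differing between lines stayed within 1.5 times of the values reported under every alternative run. They were 28, 20 and 20 with no filter (HCT116 and DLD1, HCT116 and CAL51, DLD1 and CAL51), 30, 21 and 20 with a mean of 1 FPKM or more in each line, which drops RAD50 and RAD54B, and 26 to 32, 19 to 23 and 17 to 21 with single clones left out. In all these alternatives 24 of 31, 19 of 21 and 15 of 21 genes remained, and those that did not were ATM, BLM, FANCD2, NBN, RAD50, RMI1 and UBE2T, then BLM and FANCF, then CHEK2, EME1, FANCC, PALB2, RAD50 and TOP3A. Among the size, ploidy and interaction comparisons, the count of 0 changed only without HCT116 large clone 2. It then ran from 0 to 3 for size in HCT116 and from 0 to 2 for HCT116 against CAL51 (FANCE and XRCC2). For size in HCT116 the count over all genes rose as well. For HCT116 against CAL51 the count over all genes in that fit is not given here, so nothing is concluded from the 2 genes. FANCE passed without that clone in both comparisons. The CHR motif was found in 2.86% of the genes when the window was the 100 bases next to the start, which is a shorter window by construction. No difference past the threshold changed sign. Medians of the 38 genes near 0 did with single clones left out, for size in the mean of the lines (-0.040 to 0.019) and in DLD1 (-0.077 to 0.010) and between DLD1 and CAL51 (-0.047 to 0.011).

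The fit with the clone number as a replicate block called 28, 21 and 19 genes between lines and 0 for size, ploidy and interaction. Clones of the same number did not deviate together in all cases, with correlations from 0.028 to 0.164 in HCT116 and from -0.056 to 0.085 in DLD1. The single small CAL51 clone could not be left out, and comparisons within CAL51 rest on it. Genes near 1 FPKM, such as RAD50 and RAD54B, are compressed by the pseudocount.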
